A study of Saccharomyces cerevisiae with 24 samples.

Results

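The right arm of budding yeast chromosome XI was followed across euploid and aneuploid strains. Its members were all open reading frames (ORFs) whose systematic name starts with YKR, the prefix for chromosome XI genes right of the centromere. The rule used position and no measured value, and it gave 106 genes of the 6033 nuclear ORFs tabulated. On the sacCer3 assembly the centromere lies at XI:440129-440246, and the members run from VPS1 at XI:440608-442722 to GEX2 at XI:661442-663289.

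Each culture was measured in 2 fractions: total RNA (mRNA) and ribosome-protected footprints (FP), the stretches of message that translating ribosomes shield from nuclease. The 12 cultures of 8 strains were sequenced in 2 runs and gave 24 libraries. Run 1 held the wild type (WT), D2 and D1/2, with 1 culture each. Run 2 held WT, D1/2/8 and D13 with 1 culture each, and D1/8, D13 (KLY195) and D1/2/8/11 with 2 biological replicates each.

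Strains were S288C haploids grown in YPD at 25 °C, and each name lists the duplicated chromosomes. WT (RLY2626) was MATa ura3 his3 trp1 leu2 LYS2. D2 was NVY1, D1/2 was NVY2 and D1/2/8 was NVY3, which carried a missense mutation in CAK1, the kinase that activates the cell cycle kinase Cdc28. D1/2/8/11 (KLY193) and D1/8 (KLY194) were listed with a trp cassette marking a repaired CAK1. D13 (KLY196) was MATalpha with cak1 and sec24 mutations, and D13 (KLY195) was listed with trp and leu cassettes repairing CAK1 and SEC24. By marker genes, D13 (KLY195) was also MATalpha and the other aneuploid strains were MATa. Comparisons of D13 (KLY195) with D1/8 or D1/2/8/11 thus also cross mating type. Each aneuploid strain is 1 clone, so its karyotype cannot be told apart from other differences between clones. Chromosome XI was labelled as duplicated in D1/2/8/11 and in no other strain.

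Yeast kept with an additional chromosome carries an additional copy of every gene on it. Messages generally rise with gene copy, and many cells do not lower them back, whereas some surplus proteins of complexes are degraded. The right arm of XI carries genes of ribosome assembly (DBP7, RPF2, UTP30), RNA polymerase III (RPC37), vesicle traffic (VPS1, YPT52), the mitochondrion (MIC60, CCP1) and nutrient uptake (GAP1, PTR2), so it mixes genes that are used steadily with genes that answer to nutrients.

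Labels were first set against marker genes. Mating-type markers matched the listed mating type in every library. TRP1, the marker of the cassette listed for D1/8, was at most 0.259 RPKM (reads per kilobase of coding sequence, scaled to the reads mapped in the library) in the 4 D1/8 libraries, against 358 and 375 in the mRNA of D1/2/8/11. The marking of CAK1 in D1/8 is therefore not taken as given here. In the FP library labelled D13 (KLY195) replicate 1, TRP1 was at 0.759 RPKM and LEU2 at 66.5, against 105 and 321 in replicate 2, while TRP1 was at 303 and 301 in the mRNA of the same cultures. Across 3705 genes that FP library differed less from D13 (SD of log2 ratios 0.27) than from its own replicate (SD 0.45). Over the 67 YKR genes among them the order was the other way, with SDs of 0.51 and 0.44. The main counts of members that rest on it, and the flagged differences, are given with and without replicate 1. All other values that rest on it use both replicates unless stated.

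The 4 members whose coding sequence is interrupted by an intron (ECM9, YKR005C, RPS21A and RPL40B) were at 0 in every library. A further 16 were above 0 in some libraries and 86 in all 24. TIF1, VBA5 and GEX2 have near-identical copies on other chromosomes, and their values are uncertain. DID2, a listed vesicle-sorting gene, was not analysed here.

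Promoter sequence is shown for 4 members on which the comparisons below turn: DBP7 and RPC37, divergent neighbours with overlapping windows, RPF2, and GAP1. Each window covers bases 250 to 51 upstream of the start codon on the gene's own strand, 5′ to 3′, from the S288C R64 reference. Capitals mark the PAC motif GATGAG and the RRPE motif AAAATTTT, both known from promoters of ribosome assembly genes, and the GATA motif GATAAG, known from nitrogen-regulated genes. Each was searched on both strands.
DBP7 (XI:487423-487622, minus strand): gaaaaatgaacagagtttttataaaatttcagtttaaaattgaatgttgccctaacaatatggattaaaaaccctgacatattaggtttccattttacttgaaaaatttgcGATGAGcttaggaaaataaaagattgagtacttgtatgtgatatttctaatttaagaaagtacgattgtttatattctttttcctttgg
RPC37 (XI:487520-487719, plus strand): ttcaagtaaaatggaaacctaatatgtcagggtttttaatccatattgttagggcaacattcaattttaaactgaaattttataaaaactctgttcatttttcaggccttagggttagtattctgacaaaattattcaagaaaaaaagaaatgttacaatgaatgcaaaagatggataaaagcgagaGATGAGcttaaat
RPF2 (XI:592591-592790, minus strand): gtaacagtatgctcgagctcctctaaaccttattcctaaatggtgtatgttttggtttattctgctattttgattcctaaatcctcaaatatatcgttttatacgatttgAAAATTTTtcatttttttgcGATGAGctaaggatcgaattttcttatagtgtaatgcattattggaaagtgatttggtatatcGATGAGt
GAP1 (XI:514813-515012, plus strand): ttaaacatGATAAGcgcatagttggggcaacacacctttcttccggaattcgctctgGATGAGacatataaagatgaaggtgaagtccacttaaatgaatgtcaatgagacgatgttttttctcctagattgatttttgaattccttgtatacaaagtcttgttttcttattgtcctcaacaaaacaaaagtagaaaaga
PAC was in 17 of 101 YKR windows (16.8%) and in 15.2% of all 5619 windows. RRPE was in 4 of 101 (3.96%) against 8.29%, and GATA in 18 of 101 (17.8%) against 9.98%. A match is a description of letters and not a measured site. RPF2 held PAC and RRPE together, as did 2 of 101 YKR windows and 3.97% of all windows.

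The level of the arm was taken as the median log2 RPKM ratio to the same-run WT library, over members above 0 in both libraries, shifted so that the median of genes on nonduplicated chromosomes is 0. A doubled copy corresponds to a log2 ratio of 1. The mRNA medians of the D1/2/8/11 replicates were 0.98 and 1.01 over 101 genes, and the FP medians were 0.87 and 0.92 over 91 genes. Over all members above 0, both fractions thus lay at or a little below the copy ratio. Members with at least 10 RPKM in every library of run 2 lay a little above it. Their replicate medians were 1.06 and 1.09 in mRNA and 1.10 and 1.09 in FP. With at least 10 RPKM required only in both libraries compared, the mean of the replicate medians was 1.01 in mRNA and 0.89 in FP. The FP position against the copy ratio thus changed with the genes kept. The left arm (YKL) lay at 1.04 and 1.06 in mRNA and at 1.01 and 1.03 in FP. The arms shared the copy gain. The lower YKR value in FP, taken over all members above 0, was not tested.

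The strain D1/2/8 is labelled with XI present once. Its YKR median was 0.18 in mRNA and 0.17 in FP, and the YKL median was 0.22 and 0.27. This strain had 1 culture, so those rises have no replicate check, and a rise in every cell cannot be told apart from a share of cells with XI gained. In D2, D1/2, D1/8, D13 and D13 (KLY195) the YKR medians of every library lay between -0.054 and 0.061. All these ratios share the WT library of their run, and no p-value was attached to them. In the plot of medians by strain, both arms stand at the copy line in D1/2/8/11, above 0 in D1/2/8 and at 0 elsewhere.

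**Figure D1:**
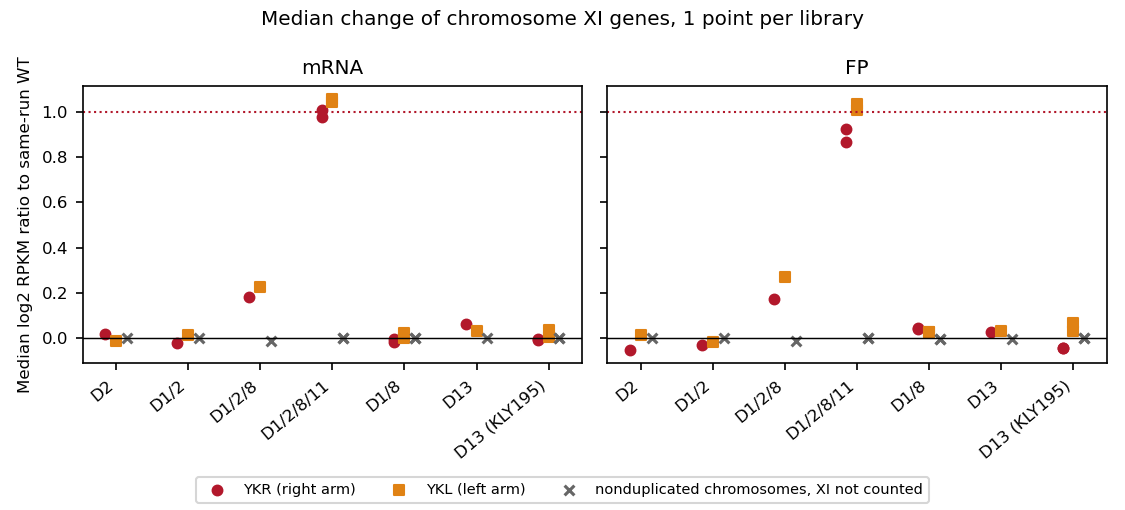
Median log2 RPKM ratio to the same-run WT library in mRNA (left) and FP (right), 1 point per library, for YKR genes (red circles), YKL genes (orange squares) and genes of nonduplicated chromosomes without XI (grey crosses). The dotted line marks a doubling. YKR medians in D1/2/8/11 were 0.98 and 1.01 in mRNA and 0.87 and 0.92 in FP, and in D1/2/8 they were 0.18 and 0.17.

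At least 1.5-fold above WT were 77.2% and 76.2% of YKR genes in the mRNA of the D1/2/8/11 replicates, where 20.9% and 21.9% of all genes were, and 70.3% and 74.7% in FP, where 24.1% and 25.1% of all genes were. The D1/2/8 shares were 16.8% in mRNA and 13.3% in FP, with 17.1% and 16.3% of all genes. The D1/2/8 shares thus lay near those of all genes, which include its duplicated chromosomes I, II and VIII, while its median lay above 0. Among genes of nonduplicated chromosomes without XI the D1/2/8 shares were 9.68% in mRNA and 8.88% in FP, below those of YKR genes. That difference was not tested.

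Position along the arm gave no steady trend. Members were divided by distance from the centromere into 34 at 1.48 to 71.2 kb, 34 at 72.4 to 138 kb and 33 at 139 to 222 kb. Replicate 1 of D1/2/8/11 gave mRNA medians of 1.09, 0.86 and 1.01 in that order, and replicate 2 gave 1.10, 0.75 and 0.93. In FP the middle segment was the highest instead, at 0.92, 1.18 and 0.79 in replicate 1 and 0.88, 1.05 and 0.82 in replicate 2. The middle segment also had the lowest lower quartile in mRNA, 0.28 and 0.21, against 0.85 and 0.85 near the centromere. UTH1, PLN1, CCP1, GPT2 and YKR070W, described below, lie in it. The plot by distance shows single genes far below the line at several positions, and the duplicated strain above D1/2/8 at most genes along the arm.

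**Figure D2:**
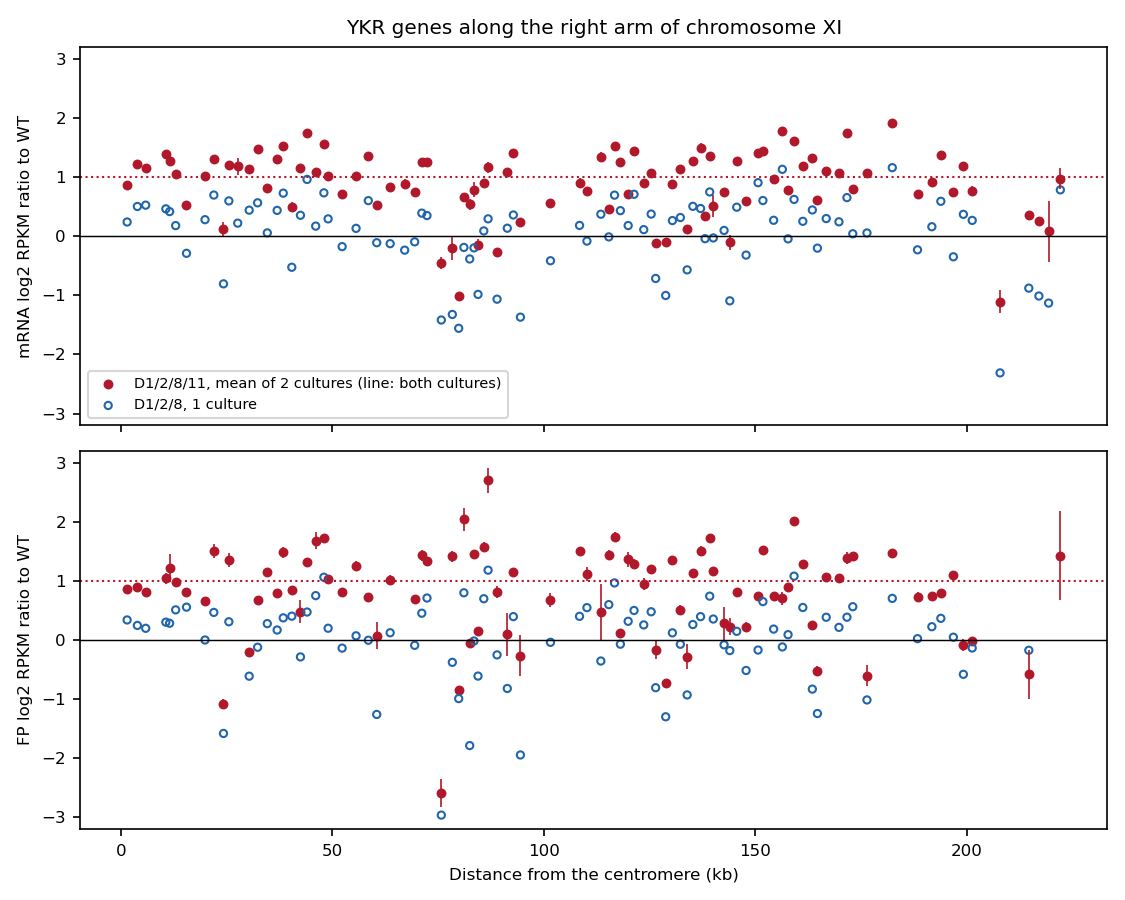
Log2 RPKM ratio to WT of each YKR gene against its distance from the centromere in kb, in mRNA (top) and FP (bottom), for D1/2/8/11 (red, mean of 2 replicates, the line spanning both) and D1/2/8 (open blue, 1 culture). D1/2/8/11 mRNA medians of the inner, middle and outer segments were 1.09, 0.86 and 1.01 in replicate 1.

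Members were then sorted by how D1/2/8/11 stood to WT. The 65 genes with at least 10 RPKM in all 18 libraries of run 2 were called well measured. Of these, 5 stayed within 0.2 of a log2 ratio of 1 in all 4 libraries (followers), 7 stayed under 1.5-fold in all 4, 5 stayed over 8/3-fold in all 4, 6 were under 1.5-fold in FP but over it in mRNA, 2 were the reverse and 40 fell between. Classes were cut from these same ratios, so the ratios describe them and test nothing. The minimum in every library removes genes that fell low somewhere, GAP1 among them: with a mean of at least 10 RPKM instead, chosen after seeing the data, 87 genes gave 6 followers, 11 low in both fractions, 5 high in both, 9 low in FP and 4 low in mRNA. The plot of classes by library shows the D1/2/8/11 points of the high class beyond the copy line and those of the low class below it. The low class, cut at 1.5-fold, ran from GMH1 mRNA at 0.51 and 0.55 down to PRY2 FP at -0.997 and -1.18.

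**Figure D3:**
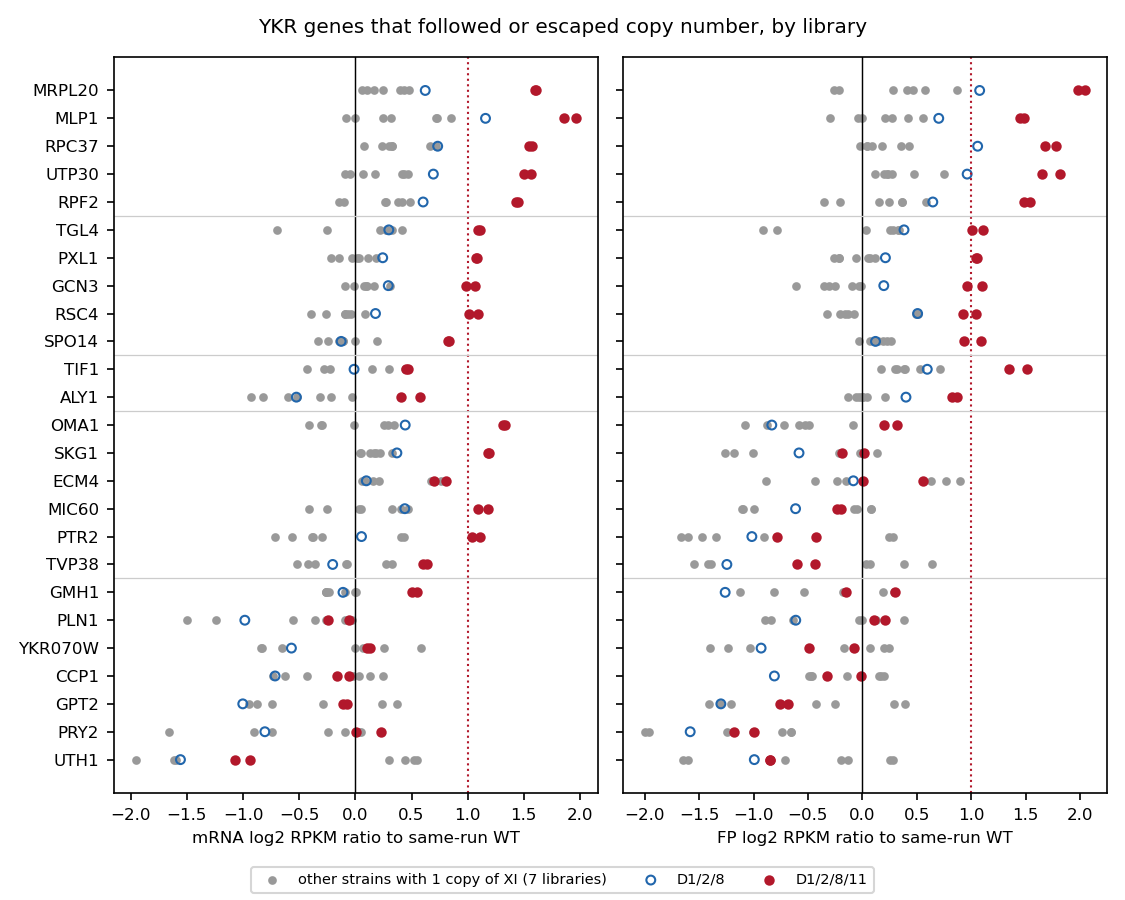
Log2 RPKM ratio to the same-run WT in mRNA (left) and FP (right) for the 25 genes of the classes, 1 point per library: D1/2/8/11 (red, 2), D1/2/8 (open blue, 1) and the other strains with XI present once (grey, 7). The dotted line marks a doubling and grey lines part the classes. For UTH1, D1/2/8/11 stood at -0.94 and -1.07 in mRNA.

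The followers were RSC4 (chromatin remodelling complex RSC), GCN3 (a regulatory subunit of the translation factor eIF2B), SPO14 (phospholipase D), TGL4 (triacylglycerol lipase) and PXL1 (a LIM-domain protein of polarized growth). PXL1 mRNA stood at 38.4 RPKM for WT against 81.2 and 80.6 for D1/2/8/11, while D1/2/8 gave 45.4, D1/8 37.6 and 43.6, D13 33.1 and D13 (KLY195) 41.6 and 39.2. PXL1 footprints stood at 27.2 RPKM for WT against 56.0 and 56.6 for D1/2/8/11, while D1/2/8 gave 31.5, D1/8 23.5 and 23.4, D13 28.6 and D13 (KLY195) 29.5 and 28.3. In both fractions the duplicated strain stood apart from every other library of run 2. GCN3 mRNA was 144 in WT, 284 and 301 in D1/2/8/11 and 135 to 176 in the other libraries of run 2, again without overlap.

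The high class was RPC37 (a subunit of RNA polymerase III), UTP30 and RPF2 (ribosome assembly factors), MRPL20 (a protein of the mitochondrial large ribosomal subunit) and MLP1 (nuclear pore basket). RPF2 mRNA stood at 180 RPKM for WT against 485 and 492 for D1/2/8/11, while D1/2/8 gave 273, D1/8 168 and 163, D13 235 and D13 (KLY195) 217 and 218. RPF2 footprints stood at 181 RPKM for WT against 507 and 526 for D1/2/8/11, while D1/2/8 gave 284, D1/8 142 and 157, D13 214 and D13 (KLY195) 234 and 202. The rise in D1/2/8, a strain labelled with this gene present once, was 0.60 on the log2 scale in mRNA and 0.65 in FP, so the duplicated strain exceeded a doubling of WT but not of D1/2/8. RPC37 showed the same order in mRNA, with 77.4 in WT, 128.4 in D1/2/8 and 226 and 230 in D1/2/8/11. In run 1 RPC37 mRNA was 84.3 in WT, 141 in D2 and 136 in D1/2.

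The low class was PRY2 (a secreted sterol-binding protein), GMH1 (a Golgi membrane protein), UTH1 (a SUN-family protein of the mitochondrion and cell wall), PLN1 (a perilipin of lipid droplets), CCP1 (mitochondrial cytochrome c peroxidase), GPT2 (glycerol-3-phosphate acyltransferase) and YKR070W. UTH1 mRNA stood at 685 RPKM for WT against 356 and 326 for D1/2/8/11, while D1/2/8 gave 232, D1/8 845 and 932, D13 177 and D13 (KLY195) 227 and 223. UTH1 footprints stood at 818 RPKM for WT against 454 and 455 for D1/2/8/11, while D1/2/8 gave 411, D1/8 994 and 978, D13 261 and D13 (KLY195) 270 and 501. A strain with UTH1 present in an additional copy thus held less of its message than WT or D1/8, and more than D1/2/8, D13 and D13 (KLY195). GPT2 mRNA stood at 39.9 RPKM for WT against 36.8 and 37.8 for D1/2/8/11, while D1/2/8 gave 19.9, D1/8 46.9 and 51.7, D13 23.8 and D13 (KLY195) 20.7 and 21.7. GPT2 footprints stood at 33.0 RPKM for WT against 19.5 and 20.6 for D1/2/8/11, while D1/2/8 gave 13.4, D1/8 43.4 and 40.3, D13 13.4 and D13 (KLY195) 12.4 and 14.3. For GPT2 the duplicated strain lay just under WT in mRNA and further below it in FP, and above D1/2/8, D13 and D13 (KLY195) in both.

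The genes low in FP but not in mRNA were MIC60 (the core of the mitochondrial contact site complex MICOS), OMA1 (an inner-membrane metalloprotease), TVP38 (a Golgi membrane protein), PTR2 (the transporter of di- and tripeptides), SKG1 (a transmembrane protein of the bud) and ECM4 (a glutathione transferase). PTR2 mRNA stood at 226 RPKM for WT against 465 and 488 for D1/2/8/11, while D1/2/8 gave 235, D1/8 299 and 305, D13 174 and D13 (KLY195) 174 and 184. PTR2 footprints stood at 214 RPKM for WT against 124 and 160 for D1/2/8/11, while D1/2/8 gave 106, D1/8 253 and 261, D13 77.0 and D13 (KLY195) 70.5 and 115. The message was highest in the duplicated strain and its footprints were not, overlapping the strains with XI present once. MIC60 mRNA was 51.01 in WT and 109 and 116 in D1/2/8/11, while its FP was 49.2 in WT and 41.9 and 43.1 in D1/2/8/11.

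The reverse held for ALY1 (an arrestin-like adaptor that helps remove plasma membrane transporters) and TIF1 (the translation initiation factor eIF4A). TIF1 mRNA was 1016 RPKM in WT, 1405 and 1386 in D1/2/8/11 and 752 to 1253 in the other libraries of run 2. TIF1 FP was 1362 in WT, 3457 and 3900 in D1/2/8/11 and 1533 to 2240 in the others. Reads of TIF1 may be shared with its near-identical copy on another chromosome, which was not duplicated in these strains, so neither value is that of TIF1 alone.

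Replicated strains allowed tests with limma on log2(RPKM + 0.5), adjusted by Benjamini-Hochberg over all genes tested and called at 0.05. A difference is on that scale, which understates changes of low genes. P-values measure the spread between these replicates, and the single cultures of D1/2/8, D13 and WT are assumed to vary like the replicated strains. D1/2/8/11 was set against D1/8, which has XI once and shares chromosomes I and VIII. D1/8 lacks the duplicated chromosome II of D1/2/8/11, so a difference due to XI cannot be told apart from one due to II. CAK1 mRNA also differed, at 186 and 183 RPKM in D1/2/8/11 against 45.3 and 37.6 in D1/8. Of 93 members tested in mRNA, 84 were higher in D1/2/8/11 (45.0% of all 5111 genes were) and 2 were lower (33.8% of all genes). The pair that was lower was UTH1, by -1.37 ± 0.06 (SE, limma adjusted p = 2.0e-09), and GPT2, by -0.39 ± 0.07 (limma adjusted p = 0.00017).

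In FP, 67 of 85 members were higher (41.2% of all 4687 genes) and 4 were lower (19.2%): UTH1, GPT2, PTR2 and TVP38. Centring each library on its median left the nonduplicated genes 0.26 higher in D1/2/8/11 than in D1/8 in FP (0.03 in mRNA). With libraries centred on the median ratio instead, 62 FP members were higher and 5 lower, where 24.4% and 23.6% of all genes were. The YKR median, 1.24 as centred by level, was then 1.00. The fall of UTH1, GPT2, PTR2 and TVP38 passed the test under either centring.

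Testing each difference against the copy ratio, 35 members lay below it and 31 above it in mRNA, where 37.9% and 38.3% of all genes departed in those directions from the ratio of their own chromosome. In FP 15 lay below and 26 above (20.4% and 34.5% of all genes), and with centring on the median ratio 20 lay below and 7 above (24.6% and 15.9%). Members thus departed from the copy ratio about as often as genes at large departed from theirs, and the FP split changed direction with the centring. The FP count also fell to between 17 and 26 departing members when any 1 replicate of D1/2/8/11 or D1/8 was left out.

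How far the members spread around a doubling differed with the reference strain. Over the 65 well-measured genes, the SD of mRNA log2 ratios of the D1/2/8/11 replicates was 0.50 and 0.53 against WT and 0.54 and 0.58 against D1/8. It was 0.35 and 0.34 against D13, 0.27 and 0.27 against D13 (KLY195), and 0.16 and 0.14 against D1/2/8. For comparison, the log2 ratio between the D1/2/8/11 replicates had an SD of 0.087. The spread of the arm around its own median was thus wider against WT or D1/8 than against D1/2/8 by more than the replicates differed.

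In FP the SDs were likewise largest against WT and D1/8 and smallest against D1/2/8: 0.75 and 0.76 against WT, 0.72 and 0.70 against D1/8, 0.47 and 0.45 against D13, 0.35 and 0.39 against D13 (KLY195) and 0.25 and 0.31 against D1/2/8, where the replicates differed with an SD of 0.20. Within 1.5- to 8/3-fold lay 45 of 65 in mRNA against WT in either replicate, and 61 and 59 against D13 (KLY195). Against D1/2/8 the median ratio was lower, 0.77 and 0.77 in mRNA, and 57 and 56 genes lay within that band with none above it. These comparisons share the D1/2/8/11 libraries, so they are given side by side.

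**Figure D4:**
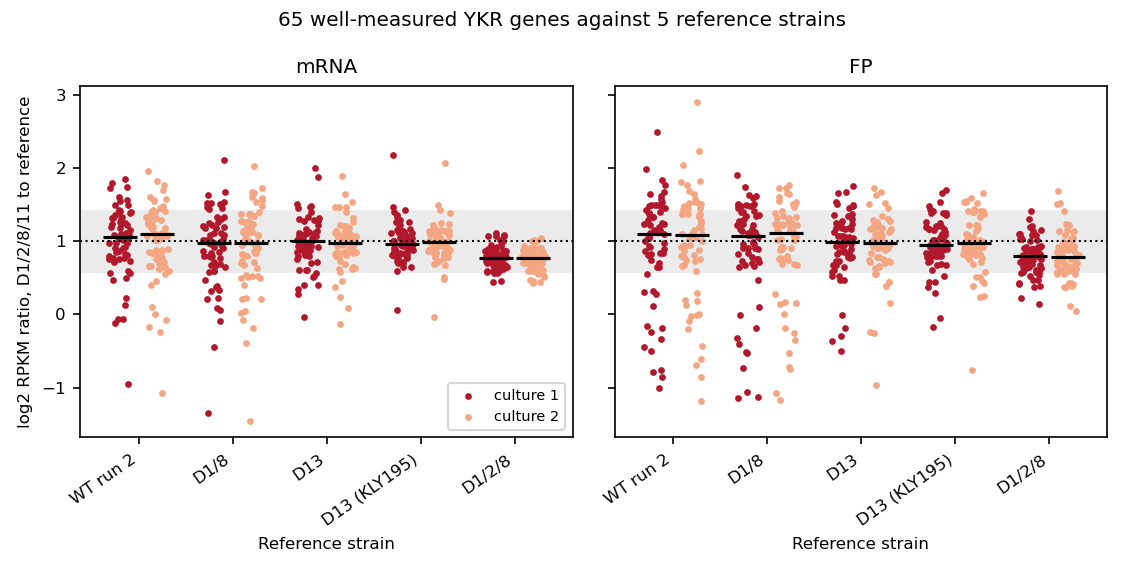
Log2 RPKM ratio of each D1/2/8/11 replicate to 5 reference strains of run 2 for the 65 well-measured YKR genes, in mRNA (left) and FP (right), 1 point per gene and replicate. The grey band spans 1.5- to 8/3-fold. The mRNA SD of replicate 1 was 0.50 against WT, 0.54 against D1/8, 0.35 against D13, 0.27 against D13 (KLY195) and 0.16 against D1/2/8.

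Against D1/2/8, 89 of 93 members were higher in D1/2/8/11 mRNA (10.2% of all genes) and none was lower (6.91% of all genes), also at an unadjusted p under 0.05 in limma. The 4 that did not pass were YKR040C, YKR073C, YKR075C and YKR012C, with differences of -0.16 ± 0.19, 0.32 ± 0.11, 0.46 ± 0.17 and 0.58 ± 0.20 (SE). From the copy ratio, 41 members lay below (8.84% of all genes) and 1 above (4.23%): YSR3, a phosphatase of sphingoid base phosphates, at 1.52 ± 0.10 (limma adjusted p of the departure 0.0067). In FP, 8 of 85 passed as higher (0.704% of all genes): MTD1, TFA2, VPS51, SIS2, SAP190, YKR045C, FMP46 and UIP5. None was lower (0.0853% of all genes), at an adjusted or unadjusted p under 0.05, and with centring on the median ratio 3 passed as higher. None departed from the copy ratio in FP by the adjusted limma p (0.0213% of all genes lay above), and 18 below and 2 above did so at an unadjusted p under 0.05.

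In mRNA the low class stood above D1/2/8 in D1/2/8/11, with differences from 0.50 to 0.87 and a median of 0.63. The median over all 93 members tested was 0.76. UTH1 was higher by 0.50 ± 0.08 (limma adjusted p = 0.00058), although it lay below WT. The high class rose by a median of 0.78 over D1/2/8, and the followers by 0.77. In mRNA these classes, far apart against WT, were close to each other against D1/2/8. In FP the medians over D1/2/8 were 0.82 for the followers, 0.75 for the high class and 0.63 for the low class. Genes of the low class ran from 0.14 to 1.30 in FP, and the class low in FP only had a median of 0.44. D1/2/8/11 chose the classes, so these values describe them. The strains also differ in CAK1, mutated in D1/2/8 and listed as repaired in D1/2/8/11.

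Against D13 (KLY195), 91 of 93 members were higher in mRNA (38.7% of all genes) and none was lower in limma, also at an unadjusted p under 0.05. ECM4, at 0.03 ± 0.07, and YKR040C, at 0.08 ± 0.16, did not pass. In FP 70 of 85 were higher (22.2% of all genes). Without D13 (KLY195) replicate 1 these counts were 90 of 93 in mRNA (34.8% of all genes) and 73 of 84 in FP (24.7%). From the copy ratio, 23 lay below and 18 above in mRNA (22.6% and 26.4% of all genes), and 16 and 11 without that replicate (17.6% and 20.1%). In FP 5 lay below and 4 above (6.68% and 4.59%), and 11 and 8 without it (11.5% and 8.60%).

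Strains with XI present once also differed among themselves in these genes. Between D13 (KLY195) and D1/8, 36 of 93 members were higher and 32 lower in D13 (KLY195) in mRNA, where 41.2% and 38.5% of all genes were. As departures from the copy ratio, 35 lay above (39.6%) and 32 below (37.6%). In FP, 26 of 85 were higher and 14 lower (34.6% and 21.5%), and with centring on the median ratio 10 were higher and 16 lower (19.7% and 25.7%). Without D13 (KLY195) replicate 1 the FP counts were 32 higher and 17 lower of 84 (41.5% and 22.9% of all genes).

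These fold changes take no D1/2/8/11 or WT value, from which the classes were cut, but the limma spread is shared by all strains of the fit and the 10 RPKM minimum read every run 2 library, so the class counts are given as a description. All 7 genes of the low class were lower in D13 (KLY195) than in D1/8 in mRNA (38.5% of all genes), by a median of -0.86, and 5 of 7 were lower in FP (21.5%). In D1/2/8 against D1/8, 6 of 7 were lower in mRNA (31.3% of all genes) and 5 of 7 in FP (16.3%), the exception in mRNA being GMH1 at -0.06. Both comparisons share the D1/8 libraries. Of the high class, 4 of 5 were higher in D13 (KLY195) than in D1/8 in mRNA (41.2% of all genes) and 2 of 5 in FP (34.6%, so near the background), and in D1/2/8 5 of 5 were higher in either fraction (41.8% and 25.9%). Within the low class UTH1 had the lowest mRNA difference, -1.97 ± 0.06 (limma adjusted p = 1.1e-10), and GPT2 the lowest FP difference, -1.41 ± 0.12 (limma adjusted p = 0.00029). UTH1 FP was lower by -1.22 ± 0.27 (limma adjusted p = 0.011), and by -0.78 ± 0.09 without D13 (KLY195) replicate 1. RPF2 was higher by 0.40 ± 0.05 in mRNA (limma adjusted p = 1.3e-05) and by 0.74 ± 0.13 in FP (limma adjusted p = 0.0040).

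Between D1/2/8 and D1/8, 49 of 93 members were higher and 20 lower in mRNA (41.8% and 31.3% of all genes). As departures from each gene's own copy ratio these were 49 above (37.7%) and 20 below (33.8%). In FP 33 of 85 were higher and 8 lower (25.9% and 16.3%). With centring on the median ratio 12 were higher in FP (12.3%) and 10 were lower (891 of all 4687 genes), and leaving out either D1/8 replicate left 6 or 7 higher. The FP count of D1/2/8 thus rested on the centring and on the pair of D1/8 libraries, whereas the mRNA count stayed at 44 to 46 without either.

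Among genes well measured, the highest mean change over the strains with XI present once was that of FMP46, a mitochondrial protein with a thioredoxin-like fold, at 0.63, followed by AIM29 at 0.47 and FPT1 at 0.40. FMP46 footprints stood at 36.6 RPKM for WT against 205 and 274 for D1/2/8/11, while D1/2/8 gave 82.8, D1/8 81.9 and 78.3, D13 122 and D13 (KLY195) 86.2 and 114. Every aneuploid library of run 2 lay above its WT. In run 1 FMP46 FP was 51.6 in WT, 46.0 in D2 and 56.8 in D1/2, so D2 lay below its WT and D1/2 a little above. The lowest means were those of PRY2 at -0.89, UTH1 at -0.60 and PTR2 at -0.56. In D1/2/8 the highest were MLP1 at 0.93, RPC37 at 0.90 and MRPL20 at 0.85, and the lowest UTH1 at -1.28, PRY2 at -1.19 and GPT2 at -1.15, each a mean of the mRNA and FP ratios.

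Ribosome density, the FP level relative to the mRNA level, was compared between D1/2/8/11 and D1/8 as the interaction of fraction and strain. It was higher for 31 and lower for 15 of 84 members, where 36.0% and 20.9% of all 4663 genes were. With centring on the median ratio it was higher for 23 and lower for 22 (24.8% and 26.9%). Against D13 (KLY195) in place of D1/8 the limma count was 0 (9 of 85 at an unadjusted p under 0.05), and without D1/8 replicate 1 it was 28. PTR2 fell by 1.34 ± 0.13, TVP38 by 1.08 ± 0.11 and MIC60 by 1.05 ± 0.09. TIF1, whose reads may be shared with its near-identical copy, rose by 1.02 ± 0.11. The classes of PTR2, TVP38, MIC60 and TIF1 were cut from FP and mRNA of the same D1/2/8/11 libraries. Their density differences are thus a description, and no p-value is given for them. Of the class low in FP, 5 of 6 had lower density, ECM4 being the exception at 0.08 ± 0.23. That class was cut from the same D1/2/8/11 libraries, so its count is a description.

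The members' proteins were then divided by a predicted hydrophobic segment, a window of 19 residues averaging 1.6 or more on the Kyte-Doolittle scale, or a window of 11 with at least 2 within the first 35 residues. Of 101 members with a reference protein, 31 had one. The prediction also takes soluble proteins such as GCN3 and DBP7, and misses MIC60, which is anchored in the inner membrane. The D1/2/8/11 FP medians against WT were 0.15 and 0.29 for 25 members with a segment and 1.04 and 1.05 for 65 without. The mRNA medians were 0.74 and 0.74 with (28 members) and 1.08 and 1.07 without (68 members). The groups were closer in mRNA than in FP.

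Genes with a segment were low in FP outside chromosome XI as well. On nonduplicated chromosomes the FP medians of D1/2/8/11 were -0.71 and -0.70 with a segment and 0.15 and 0.16 without, and in D1/2/8 they were -0.72 and 0.12. The members with a segment thus lay about as far below the others as such genes did elsewhere. Against D1/2/8 the FP medians of the members were 0.60 and 0.68 with and 0.75 and 0.78 without, and in mRNA 0.80 and 0.81 with and 0.79 and 0.78 without. Against D13 (KLY195) they were 0.94 and 1.00 with and 0.95 and 0.97 without in FP. In the plot of medians by reference, the triangles (with a segment) and circles (without) lie apart in FP against WT and D1/8, and closer together against the other 3 references.

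**Figure D5:**
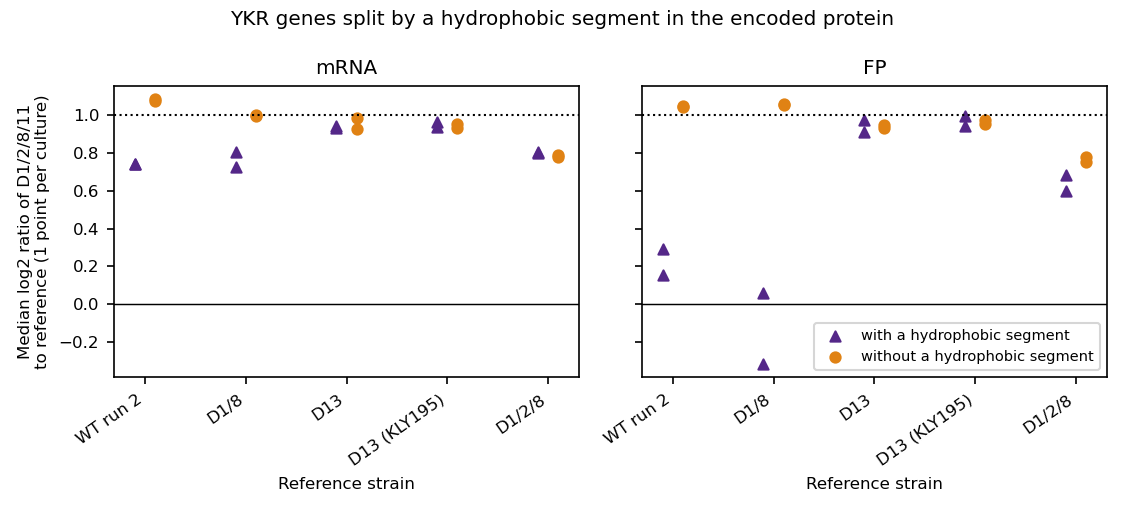
Median log2 RPKM ratio of each D1/2/8/11 replicate to each reference strain of run 2 for YKR genes with (purple triangles) and without (orange circles) a predicted hydrophobic segment, in mRNA (left) and FP (right). FP medians against WT were 0.15 and 0.29 with a segment and 1.04 and 1.05 without, and against D13 (KLY195) 0.94 and 1.00 with and 0.95 and 0.97 without.

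In the tests against D1/8, 9 of 20 members with a segment were higher in FP and 4 lower, and 57 of 64 without one were higher and 0 lower (52 higher and 1 lower with centring on the median ratio). Over all genes 41.2% were higher and 19.2% lower in FP, so the shares of members with a segment were near those of genes at large and those without were not. Genes at large mix genes with and without a segment, and shares for genes with a segment elsewhere are not given here. Against WT, such genes on nonduplicated chromosomes had D1/2/8/11 FP medians of -0.71 and -0.70, below the 0.15 and 0.29 of the members with a segment. In mRNA 21 of 25 with a segment were higher and 61 of 66 without, where 45.0% of all genes were. Against D13 (KLY195), 14 of 20 with a segment were higher in FP and 56 of 64 without (22.2% of all genes), and none was lower in either group. The difference between the groups of members was not tested.

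By role, all 5 ribosome assembly genes listed were higher in the duplicated strain. They were DBP7 (an RNA helicase), RPF2, UTP30, LAS1 (an endonuclease of pre-rRNA) and SRP40 (a nucleolar protein). Against D1/8, 5 of 5 were higher in mRNA with a median of 1.52 and 5 of 5 in FP with a median of 1.69. Of all genes, 45.0% were higher in mRNA and 41.2% in FP, and of all members tested 84 of 93 and 67 of 85. The medians of these 5 genes against WT were 1.44 in mRNA and 1.51 in FP in D1/2/8/11, and 0.60 and 0.65 in D1/2/8. The arm medians in D1/2/8/11 were 0.99 and 0.89. Against D1/2/8 their mRNA median was 0.78, near that of the arm at 0.76. In D1/2/8 mRNA, SRP40 at 0.04 and DBP7 at 0.17 lay closer to WT than RPF2 at 0.60, UTP30 at 0.69 and LAS1 at 0.71. SRP40 mRNA stood at 261 RPKM for WT against 460 and 443 for D1/2/8/11, while D1/2/8 gave 268, D1/8 287 and 317, D13 165 and D13 (KLY195) 209 and 203. Its difference from D1/8 was 0.59 ± 0.06.

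The role counts that follow stand beside 45.0% of all genes higher than in D1/8 in mRNA and 41.2% in FP (33.8% and 19.2% lower). Of the transcription and RNA processing list, 13 of 13 tested were higher than in D1/8 in mRNA and 12 of 13 in FP. Of spindle, nuclear pore and cell cycle genes, 7 of 8 and 8 of 8 were, and of vesicle traffic genes, 11 of 11 and 9 of 11, with TVP38 lower in FP. The translation and surveillance list gave 4 of 4 in both fractions, its ribosomal protein genes RPS21A and RPL40B being at 0. Mitochondrial genes gave 8 of 10 in mRNA and 6 of 10 in FP, with UTH1 lower in both. Metabolic genes gave 10 of 12 and 7 of 11, with GPT2 lower in both.

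The membrane transport and cell surface list stood lowest. Of its 11 genes, 8 were tested against D1/8 in mRNA and 4 in FP. In mRNA 6 of 8 were higher (45.0% of all genes), and in FP 0 of 4 were higher (41.2%) and 2 lower (19.2%). Its D1/2/8/11 medians against WT were 0.25 in mRNA and -0.52 in FP. For D1/2/8 they were -0.88 and -1.13, for D13 (KLY195) -0.79 and -1.21, and for D1/8 -0.17 and 0.26. Against D1/2/8 in mRNA the median difference of the 8 tested was 0.88, beside 0.76 over all 93 members tested. The FP medians of D13, D1/2 and D2 were -0.94, -0.62 and -0.36. D1/8 was the one strain with an FP median above WT, but the strains were not compared over the same genes. The FP medians covered 9 genes in D1/2/8/11 and D1/8, and 8 in D1/2/8, D13 and D13 (KLY195). They covered 7 genes in D1/2 and 6 in D2. The 9 of D1/8 included GEX2, whose values are uncertain.

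GAP1, the general amino acid permease, was not among the well-measured genes. GAP1 mRNA stood at 57.6 RPKM for WT against 39.0 and 44.8 for D1/2/8/11, while D1/2/8 gave 21.5, D1/8 29.1 and 26.6, D13 122 and D13 (KLY195) 25.5 and 28.5. GAP1 footprints stood at 44.9 RPKM for WT against 6.33 and 8.75 for D1/2/8/11, while D1/2/8 gave 5.76, D1/8 18.9 and 15.3, D13 33.2 and D13 (KLY195) 35.3 and 11.3. The message stood highest in D13 and the footprints highest in WT, and the duplicated strain lay below WT in both. Its ribosome density was lower in D1/2/8/11 than in D1/8 by 1.54 ± 0.21 on the log2 scale (limma adjusted p = 0.00034), while its FP difference of -0.94 ± 0.49 did not pass.

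YSR3, of the membrane list, stood at different distances from each reference strain. YSR3 mRNA stood at 29.2 RPKM for WT against 35.3 and 33.8 for D1/2/8/11, while D1/2/8 gave 11.3, D1/8 15.3 and 14.4, D13 6.87 and D13 (KLY195) 6.93 and 6.77. Within run 2, the WT and D1/2/8/11 libraries overlapped no other strain, and in run 1 WT gave 13.98. The difference from D13 (KLY195) was 2.25 ± 0.08 and from D1/8 1.20 ± 0.08 on the log2 scale. MTD1, a folate-pathway dehydrogenase, had a difference of 1.50 ± 0.05 from D13 (KLY195) and of 0.45 ± 0.06 from D1/2/8, where its mRNA was 578 RPKM against 309 in WT and 809 and 825 in D1/2/8/11.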

How the data were processed

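Ribosome-protected footprints and total RNA were sequenced from 12 cultures with a TruSeq ribosome profiling kit after 2 min in 0.1 mg/ml cycloheximide. According to the study's methods and processing notes, the authors trimmed reads with cutadapt, aligned them with Bowtie to sacCer3 messages with no mismatch, counted coding-sequence reads, deposited RPKM values and divided those of aneuploid libraries by the median ratio to WT over nonduplicated genes. Versions are not given in the sources used here. Values at 0 or blank stand for fewer than 4 reads. Reads recovered from the RPKM steps were 1661077 to 5075029 (FP) and 1536177 to 3490451 (mRNA) in run 1, and 8477936 to 24932868 and 22486555 to 39766547 in run 2, so run 1 is the less precise.

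Ratios to WT were shifted to a median of 0 over genes of nonduplicated chromosomes. limma 3.58.1 in R 4.3.3 was run on log2(RPKM + 0.5) over the 9 libraries of a run 2 fraction, for genes with a mean of at least 5 RPKM, each library centred on its median over genes of chromosomes duplicated in no strain. The density test used the 8 libraries of D1/2/8/11 and D1/8. Other steps used Python 3.11.15, pandas 2.3.3, numpy 2.4.6 and matplotlib 3.10.9. The limma script was tested on simulated data.

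Named genes were the followers, the escape classes (up to 8 each by distance from the copy ratio), the 3 highest and 3 lowest over strains with XI present once and in D1/2/8, and the role lists. Members and lists were chosen with earlier results of these data known. Alternatives were other added values, filters and centrings, single replicates left out, other reference strains and a replicate block. Centring on the median ratio, D1/2/8 as reference, D13 (KLY195) without replicate 1 and the mean filter on classes were added after seeing the data.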

Additional observations from a re-analysis of the deposited data

Results flagged for a closer look

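Only well-measured genes named for their class, or as highest or lowest, were screened here. In 4 of these, both replicates of D13 (KLY195) lay on one side of WT and both replicates of D1/8 on the other. This held in both fractions, although both strains carry chromosome XI once, and the difference between the strains passed the limma test. Of all genes, 41.2% were higher and 38.5% lower in D13 (KLY195) than in D1/8 in mRNA, and 34.6% and 21.5% in FP. The share of all genes meeting the whole rule was not counted. UTH1 was lower in D13 (KLY195) by -1.97 in mRNA and -1.22 in FP on the log2 scale, and GPT2 by -1.19 and -1.41. PTR2 was lower by -0.74 in mRNA and -1.31 in FP, and RPF2 was higher by 0.40 and 0.74. Without D13 (KLY195) replicate 1, whose FP library carried little TRP1 signal, the FP differences were -0.78 for UTH1, -1.33 for GPT2, -0.97 for PTR2 and 0.63 for RPF2, and each still passed. With libraries centred on the median ratio the FP differences of both replicates were -1.41 for UTH1, -1.50 for PTR2 and 0.55 for RPF2.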

How the results depend on the processing

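Of 150 recomputed values of the comparisons, 124 stayed within the replicate spread or within 1.5 times the count, and 26 did not. None of the medians changed sign, and the other values are counts, which cannot. The split of FP calls did turn in a pair of comparisons: departures from the copy ratio between D1/2/8/11 and D1/8 went from 15 below and 26 above to 20 and 7 with centring on the median ratio (18 and 10 without centring), and D13 (KLY195) against D1/8 from 26 higher and 14 lower to 10 and 16 (9 and 16 without centring). The number of members higher in D1/2/8/11 than D1/8 was 84 in mRNA and 67 in FP, and stayed at 83 to 85 and 61 to 63 without single replicates. With D1/2/8 as reference, 8 were higher in FP. Members departing from the copy ratio numbered 66 in mRNA, 56 to 62 without single replicates, 42 with D1/2/8 as reference, 41 with D13 (KLY195) and 27 with D13 (KLY195) without replicate 1. In FP they numbered 41, with 17 to 26 when 1 replicate was left out, 27 with centring on the median ratio, 0 with D1/2/8 as reference, 9 with D13 (KLY195) and 19 with D13 (KLY195) without replicate 1. Changed density was called for 46 members, for 28 to 49 without single replicates and for 0 against D13 (KLY195). Members differing in FP between D13 (KLY195) and D1/8 numbered 40, 25 without centring, 26 with centring on the median ratio and 14 to 49 without single replicates. Members higher in FP in D1/2/8 than D1/8 numbered 33, 11 without centring, 12 with centring on the median ratio and 6 to 7 without a D1/8 replicate. The cause of these shifts was not tested.

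With 1 RPKM added to every value the D1/2/8/11 medians were 0.90 in mRNA and 0.83 in FP, in place of 0.99 and 0.89. The D1/2/8 mRNA median of 0.18 was 0.23 for genes with at least 10 RPKM in both libraries and 0.15 against the mean of both WT libraries.

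A replicate block gave 84 and 68 members higher in D1/2/8/11, 67 and 41 departing, 44 with changed density, and 70 and 39 differing between D13 (KLY195) and D1/8 (mRNA and FP, where split), so it changed none of these counts by 1.5 times. No paired analysis was possible for the D1/2/8 counts because that strain has 1 culture and no replicate number. The numbers did not pair D1/8 with another strain. Same-numbered deviations of D1/2/8/11 and D1/8 correlated at -0.079 in mRNA and -0.052 in FP. Those of D1/8 and D13 (KLY195) correlated at 0.050 and 0.048. For D1/2/8/11 and D13 (KLY195) the values were 0.33 and 0.14, above the limit of 0.1 set for pairing. The comparison of D1/2/8/11 with D13 (KLY195) was not refitted with a replicate block. Depth limits the run 1 strains and members under 10 RPKM most.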
